A study of Mus musculus with 6 samples.

Results

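The ribosomal protein genes of the cytosolic ribosome were followed in liver sinusoidal endothelial cells (LSECs), which form the porous wall of the liver sinusoids. The genes were taken by name, as symbols that begin with *Rpl* or *Rps* and a number together with *Rpsa*, *Rplp0*, *Rplp1* and *Rplp2*, with the S6 kinase genes and symbols marked as pseudogenes left out. This gave 85 of the 23282 rows, of which 82 averaged at least 10 counts per library and are described here. All of the 82 passed the filter on low counts, which kept 11583 genes. The 3 others were near 0. *Rpl39l* had 2, 5 and 9 counts in *Txnip*-/- LSECs against 1, 1 and 0 in WT LSECs, *Rpl3l* had 1, 0 and 0 against 2, 0 and 0, and *Rpl10l* was at 0 in all 6.

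LSECs came from mice that lack *Txnip* in all cells (3 libraries, *Txnip*-/-, on a C57BL/6J background) and from C57BL/6J mice (3 libraries, WT), with no other allele or agent named for either group. The cells were taken from perfused livers by a density gradient and beads that carry an antibody to CD146, and the reads come from the 3′ ends of polyadenylated RNA (QuantSeq), so that a count is not expected to grow with the length of the transcript. Age and sex for this experiment, and whether each library is a separate mouse, are not given in the sources used here, so p-values measure the spread between these libraries, which may be technical.

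A ribosome is built from a large subunit, which joins amino acids, and a small subunit, which reads the mRNA, and each holds ribosomal RNA together with a set of proteins, most of them present in equal copy number. The genes of these proteins are among the most strongly transcribed of any cell. Their mRNAs typically begin with a run of C and T (U in the RNA) called the terminal oligopyrimidine tract, through which mTOR and LARP1 set their translation. Mammalian genomes also hold many processed copies of these genes, which matters here because reads with several alignments were included in the counts. Whether such a read was counted at each place is not given in the sources used here.

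The tract can be seen at many of the start sites. RefSeq (GRCm38.p6) gave 300 bases around the start for 61 of the 82 genes. The 30 bases centred on the start are printed for 2 members with a long run (*Rpl28* and *Rps9*) and for members on which the results below turn, with the longest run of C or T in capitals. *Rpl28* is at chr7:4792950-4792979, *Rps9* at chr7:3704026-3704055 and *Rpl4* at chr9:64173372-64173401, all on the plus strand. *Rps2* is at chr17:24720048-24720077 on the plus strand, *Rpl7l1* at chr17:46782642-46782671 on the minus strand and *Rps3a1* at chr3:86142654-86142683 on the minus strand.
Rpl28: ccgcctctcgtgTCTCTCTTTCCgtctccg
Rps9: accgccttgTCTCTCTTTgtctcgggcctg
Rpl4: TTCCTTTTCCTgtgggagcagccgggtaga
Rps2: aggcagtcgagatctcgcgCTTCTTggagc
Rpl7l1: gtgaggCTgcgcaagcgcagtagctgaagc
Rps3a1: TTaaagccggaagggcgaaagagcaagggt
Within the printed bases the run was 11 bases in *Rpl28* and *Rpl4*, 9 in *Rps9*, 6 in *Rps2* and 2 in *Rpl7l1* and *Rps3a1*. Within 30 bases of the start it was 14 in *Rpl4* and 5 in *Rpl7l1* and *Rps3a1*. The sequences follow RefSeq starts. GENCODE starts *Rps3a1* at 86142702, outside the printed bases, and a run there was not searched for, so a tract in *Rps3a1* is neither shown nor excluded. Short runs were also found in members not printed, such as *Rpl24* (2), *Rps3* (3) and *Rpl10* (3). A run of at least 8 within 30 bases of the start was found in 34 of the 61 genes (55.7%) and in 25.8% of the 27025 genes of the table. The 7 letters CCGGAAG, the core bound by Ets family factors, were present on either strand of the 300 bases in 25 of 61 (41%) against 9.93% of all genes, *Rps3a1* among them. AAGATGG, the core of YY1 sites, was in 10 of 61 (16.4%) against 7.28%, and CTTTCC, which can overlap a run of C and T, in 32 of 61 (52.5%) against 29.3%. These matches describe the letters only, and a gene with several RefSeq starts counts when any of them holds the motif. The comparison is with all genes of the table, whether or not they were found in LSECs, while the members all averaged at least 10 counts.

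The counts summed to between 9147764 and 10193952 per library, so that 3 counts equal 0.294 to 0.328 CPM, the counts scaled to a common library size. The deleted gene, *Txnip*, was left with 269, 216 and 191 counts in *Txnip*-/- LSECs, where WT LSECs had 1901, 2019 and 1994. WT replicate 3 stood apart from the other WT libraries: the chi-square distance per degree of freedom was 37.0 and 40.2 to WT replicates 1 and 2, which differed by 3.93, and 13.3 to 17.1 to the *Txnip*-/- libraries. The ribosomal RNA precursor row *Rn45s* held 17.8% of its counts, against 10.03% and 9.68% in WT replicates 1 and 2 and 16.8% to 18.6% in the *Txnip*-/- libraries. Each LSEC marker was present, with a summed level of 4502 to 4874 CPM in *Txnip*-/- and 5154 to 7434 CPM in WT libraries. All 11 were lower in *Txnip*-/- LSECs, and 2 of them (*Stab1* and *Stab2*) by the test. Markers of Kupffer cells and macrophages summed to 281 to 317 CPM against 690 to 756 CPM. All 11 tested were lower in *Txnip*-/- LSECs, 10 of them by the test. The other, *Clec4f*, had a log2 fold change of -1.14 (adjusted p = 0.0917 in edgeR). Stellate cell markers summed to 51.8 to 60.7 CPM against 28.97 to 32.0 CPM with 2 of 8 higher by the test, and hepatocyte markers to 58.2 to 66.0 CPM against 56.5 to 60.1 CPM with none of 8 past it. Neutrophil markers reached at most 4.04 CPM, lymphocyte markers 0.415 CPM with 6 of them at 0 in every library, and cholangiocyte markers 6.12 CPM. The part of these cells in the results below was not tested, and in such bulk RNA fewer cells of a type and less RNA per cell cannot be told apart.

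Levels of the ribosomal protein genes, as CPM scaled with TMM factors, spanned 85.1-fold, from 47.6 CPM for *Rps4l* to 4050 CPM for *Rplp1* (mean of 6 libraries), with a median of 343 CPM. There were 10 genes over 1000 CPM and 6 under 100 CPM, and the 5 highest held 21.7% of the summed level. *Rplp1*, an acidic protein of the stalk that recruits elongation factors, was followed by *Rpl22*, *Rpl4*, whose protein lines the exit tunnel of the large subunit, *Rps9* and *Rps14*. *Rpl22* averaged 1402 CPM, *Rpl4* 1183 CPM, *Rps9* 1168 CPM and *Rps14* 1164 CPM, and the last 3 did not differ beyond their spread over libraries. At the low end *Rpl35a* averaged 70.5 CPM, *Rpl22l1* 53.1 CPM and *Rps4l* 47.6 CPM.

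The summed share of the ribosomal protein genes depended on what it was divided by. Of all counts they took 4.02%, 4.08% and 4.08% in *Txnip*-/- LSECs and 4.24%, 4.36% and 3.95% in WT LSECs, 4.06% ± 0.032 against 4.18% ± 0.21 (SD, n = 3), and the groups overlapped. With the *Rn45s* row left out of the totals the share was 4.85%, 5.02% and 4.90% against 4.71%, 4.83% and 4.81%, which is higher in every *Txnip*-/- library. Over the TMM effective library size it was 4.18% ± 0.066 against 4.07% ± 0.057, and the ranges overlapped (4.11% to 4.24% against 4.02% to 4.13%). The difference was -0.12 percentage points on all counts, 0.14 without *Rn45s* and 0.11 on the effective size, so its direction depended on the denominator. On all counts it was -0.035 points without WT replicate 2, -0.24 without WT replicate 3 and between -0.13 and -0.094 without another library.

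Among the single genes, 1 of the 82 passed an adjusted p of 0.05 in edgeR's quasi-likelihood test (Benjamini-Hochberg over 11583 genes), and it was lower in *Txnip*-/- LSECs. The rule called 1.55% of all genes tested (179, of which 66 or 0.57% were higher and 113 or 0.976% lower). Among the 3758 genes of the same range of levels as the members it called 95 (2.53%). The share among ribosomal protein genes was 1.22%, below both, and rests on 1 gene. With library totals alone, without normalization factors, the same rule gave 36 higher and 150 lower genes. At an unadjusted p under 0.05 there were 7 higher members and 1 lower, beside 5.48% higher, 6.05% lower and 11.5% in all over the genes tested. All *Txnip*-/- libraries lay above all WT libraries for 12 members and below them for 1, where 8.43% and 8.94% of all genes did so. The 12 were *Rplp1*, *Rpl22*, *Rpl8*, *Rps2*, *Rpl6*, *Rpsa*, *Rps4x*, *Rpl39*, *Rpl23a*, *Rpl7l1*, *Rpl29* and *Rps4l*, of which all but *Rpl8*, *Rps4x*, *Rpl39*, *Rpl23a* and *Rpl29* had an unadjusted p under 0.05, and the lower gene was *Rps3a1*.

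The fold changes were small. The median log2 fold change of *Txnip*-/- over WT was 0.029 (53 genes above 0 and 29 below, quartiles -0.027 and 0.098), where the median over all genes tested was -2.8e-05. With 1 library left out it was between 0.016 (without *Txnip*-/- replicate 3) and 0.052 (without *Txnip*-/- replicate 1), and the genes above and below 0 between 47 and 35 (without WT replicate 3) and 64 and 18 (without WT replicate 2). Changes stayed within 1.1-fold for 69 of the 82 genes (84.1%) and within 1.2-fold for 79 (96.3%). In all genes tested 42.6% stayed within 1.1-fold, and among the 3758 genes of the same range of levels 62.3%. The median biological coefficient of variation was 8.60% for the members, 9.82% for the genes of the same range of levels and 15.9% for all genes. The large subunit had a median of 0.033 over 49 genes (31 above 0 and 18 below) and the small subunit 0.014 over 33 genes (22 above and 11 below). Without normalization factors the members' median was -0.053 while that of all genes was -0.082, with 27 members above 0.

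**Figure D1:**
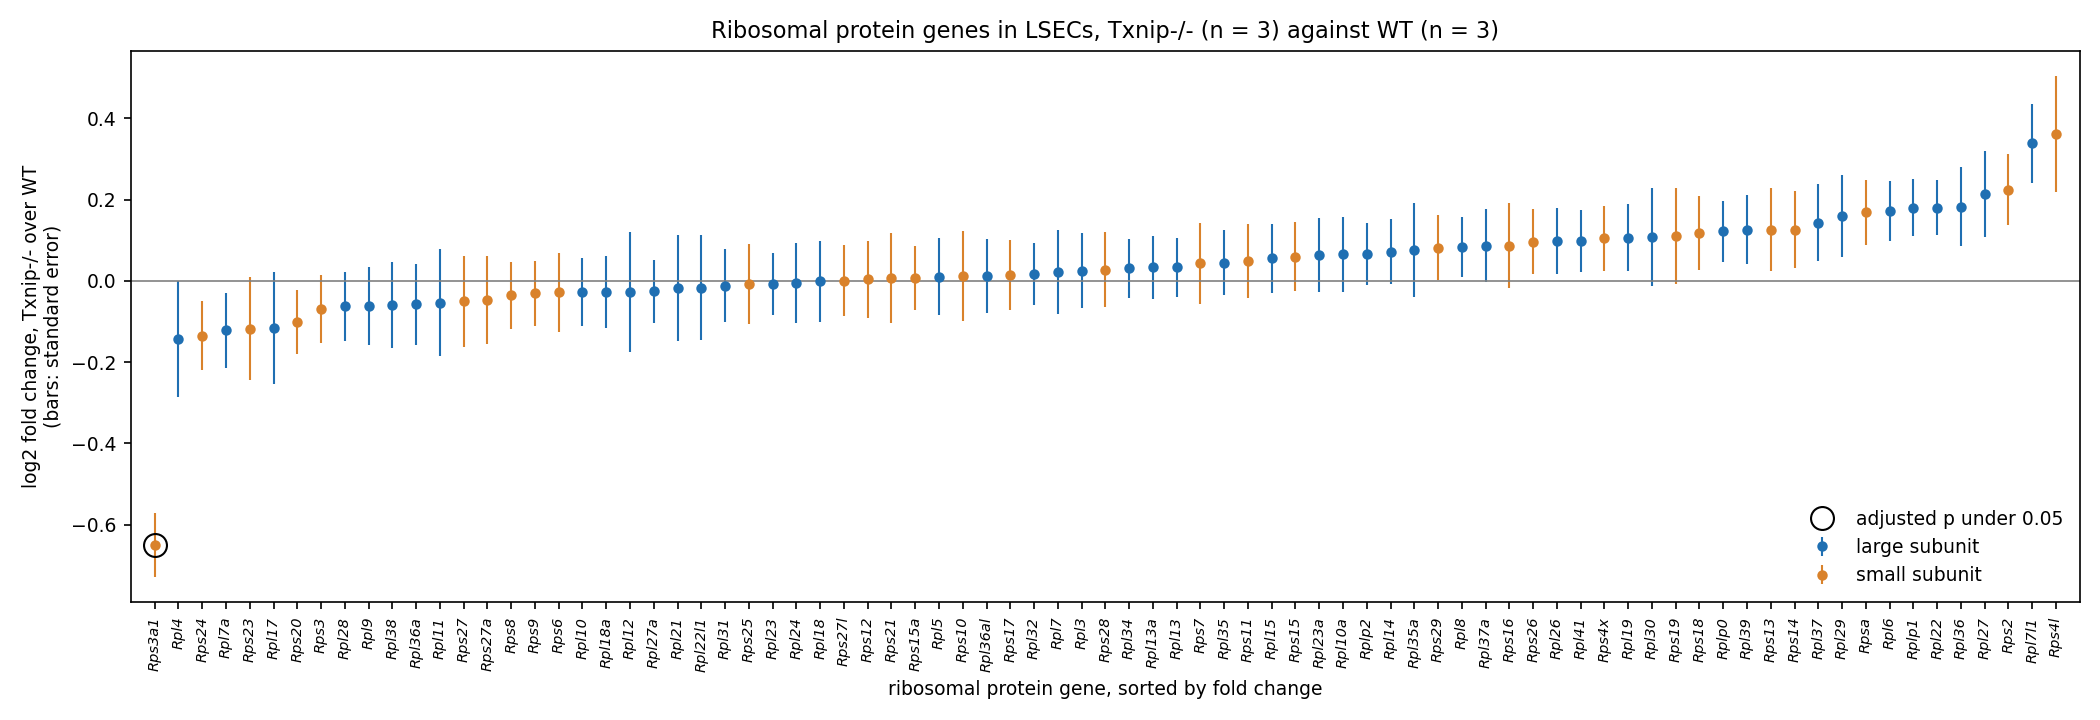
The log2 fold change of *Txnip*-/- over WT LSECs (3 libraries each) on the vertical axis for 81 of the 82 ribosomal protein genes, sorted along the horizontal axis, with bars for the standard error and colours for the subunit. *Rps3a1*, at -0.65 and ringed for its adjusted p, stands below the others, which lie between -0.14 and 0.36.

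*Rps3a1*, a protein of the small subunit near the mRNA exit and the sites where initiation factor eIF3 binds, was the gene that fell. Its levels were 411, 410 and 417 CPM in *Txnip*-/- LSECs and 618, 636 and 690 CPM in WT LSECs. The *Txnip*-/- libraries differed by a few CPM and all lay far below the lowest WT library, WT replicate 3 included. The mean fell from 648 ± 37.8 to 413 ± 3.96 CPM (SD, n = 3), a log2 fold change of -0.65 (SE 0.079, adjusted p = 0.000108 in edgeR), and so decreased by 36.3% on the linear scale. The next lowest gene, *Rpl4*, was at -0.14, and the SD of the fold changes of the other 81 genes was 0.097. The call held in each alternative fit and with each library left out, where its log2 fold change was between -0.74 and -0.60. *Rps3a1* made up 2.59%, 2.49% and 2.61% of the small subunit counts in the *Txnip*-/- libraries against 3.89%, 3.88% and 4.29% in WT.

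In GENCODE M21 *Rps3a1* is a gene of the minus strand of chromosome 3 (GRCm38), starts at 86137940, ends at 86142702, has 6 exons and a coding sequence of 792 bases. At least 50 bases of the last 300 coding bases of *Rps3a1* recur exactly in 10 other annotated genes. Of these 1 had a row in the files, *Khdrbs2*, with 0 counts in all 6 libraries, and the others were not analysed here. *Txnip* lies on the same chromosome from 96557957 to 96561883, at 10.4 Mb from *Rps3a1*. The nearest tested genes on either side did not pass the test: *Sh3d19* had a log2 fold change of -0.30 (SE 0.19, adjusted p = 0.592 in edgeR) and *Lrba* -0.19 (SE 0.26, adjusted p = 0.869).

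The share of genes called was then set out by distance from *Txnip*, with limits chosen after the positions were seen. Within 15 Mb of it 10 of 253 tested genes, *Rps3a1* included, were called (3.95%; 4 higher and 6 lower), against 2 of 254 (0.787%) beyond 20 Mb on the same chromosome and 162 of 10595 (1.53%) on other chromosomes. It was 3.43% within 10 Mb and 3.7% within 20 Mb. Without WT replicate 3 the shares were 4.53% within 15 Mb, 3.04% beyond 20 Mb and 3.06% on other chromosomes. Without another library 5 to 8 genes were called within 15 Mb. The share was 1.88% without WT replicate 1, 1.90% without *Txnip*-/- replicate 2 and 3.09% without *Txnip*-/- replicate 3. Fewer genes were called elsewhere in these fits as well. On other chromosomes the shares were 0.731%, 0.825% and 0.916% in the same order, and beyond 20 Mb 0.380%, 0.379% and 0.379%. These shares were compared as counts, without a test. Among the called neighbours were *Cd5l* (-0.99), which is made by Kupffer cells and is among the markers that fell, *Ctss* (-1.75), *S100a11* (-1.37) and *Csf1* (0.74). The other ribosomal protein genes of this chromosome were *Rps27* at -6.35 Mb from *Txnip* (log2 fold change -0.051), *Rpl34* at 34.2 Mb (0.031) and *Rpl22l1* at -67.8 Mb (-0.017), and none was called. The loss of *Txnip* and other differences in the DNA around it between the mouse groups cannot be told apart in this design.

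**Figure D2:**
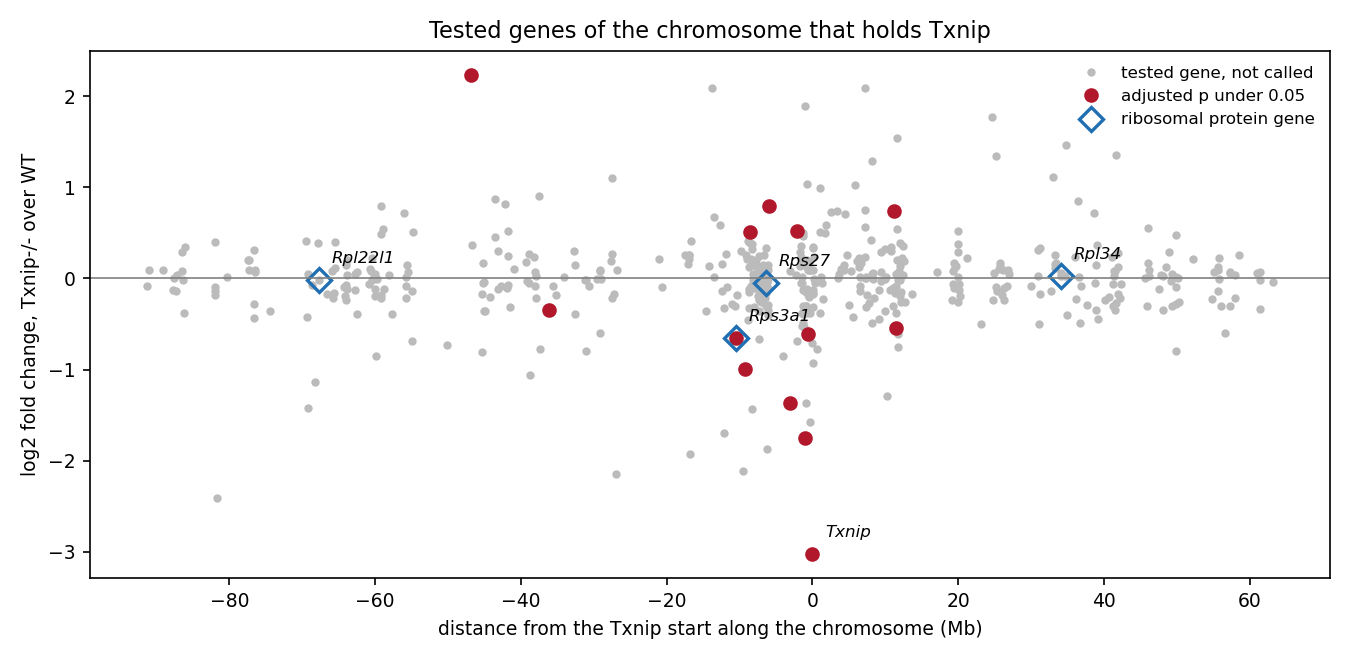
The log2 fold change of *Txnip*-/- over WT for each tested gene of the chromosome that holds *Txnip* against its distance from *Txnip* in Mb, with called genes in red and ribosomal protein genes as blue diamonds. *Rps3a1* is called at -10.42 Mb, while *Rpl22l1*, *Rps27* and *Rpl34* lie near 0 on the vertical axis.

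The gene with the highest count of the group, *Rplp1*, was higher in each *Txnip*-/- library by a narrow margin. Its levels were 4268, 4227 and 4410 CPM against 3590, 3593 and 4210 CPM in WT, so that WT replicate 3 almost reached the *Txnip*-/- range. The log2 fold change was 0.18 (SE 0.070, adjusted p = 0.304 in edgeR). The other stalk genes did not pass the test either: *Rplp0*, which anchors the stalk, was at 970 ± 38.8 against 891 ± 48.1 CPM (log2 fold change 0.12, adjusted p = 0.585) and *Rplp2*, the partner of *Rplp1*, at 832 ± 31.7 against 794 ± 46.4 CPM (0.067, adjusted p = 0.830). Without WT replicate 3, *Rplp1* passed the test (log2 fold change 0.26, adjusted p = 0.00144).

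*Rpl22* of the large subunit and *Rps2*, which lies at the mRNA entry of the small subunit, also did not overlap between the genotypes. *Rpl22* had 1481, 1503 and 1486 CPM in *Txnip*-/- and 1302, 1284 and 1358 CPM in WT libraries (log2 fold change 0.18, SE 0.068, adjusted p = 0.283). *Rps2* had 663, 660 and 762 CPM against 636, 608 and 542 CPM (0.22, SE 0.087, adjusted p = 0.303). *Rpsa*, a small subunit protein that is also known as the laminin receptor, was at 503 ± 23.8 against 448 ± 15.8 CPM (0.17, adjusted p = 0.430). *Rpl6*, chosen for its tight replicates after the values were seen, had 644, 636 and 646 CPM against 572, 566 and 572 CPM (0.17, SE 0.074, adjusted p = 0.367). None of these passed the test on all 6 libraries, and without WT replicate 3 *Rpl22* did (0.20, adjusted p = 0.0433).

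The largest positive fold changes were those of *Rps4l* and *Rpl7l1*, followed by that of *Rps2* given above. *Rps4l*, which GENCODE lists as a transcribed processed pseudogene on chromosome 6, had 63.5, 45.2 and 52.0 CPM in *Txnip*-/- and 41.6, 43.8 and 39.6 CPM in WT libraries (log2 fold change 0.36, SE 0.14, adjusted p = 0.313). *Rpl7l1*, a paralogue of *Rpl7*, had 153, 149 and 167 CPM against 119, 119 and 133 CPM (0.34, SE 0.097, adjusted p = 0.110), and all *Txnip*-/- libraries were above all WT libraries. Without WT replicate 3 *Rpl7l1* passed the test (0.39, adjusted p = 0.0276). *Rpl27* at 162 ± 7.73 against 139 ± 18.5 CPM (0.21, adjusted p = 0.456) and *Rpl36* at 214 ± 10.004 against 189 ± 20.02 CPM (0.18, adjusted p = 0.494) overlapped between the genotypes.

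**Figure D3:**
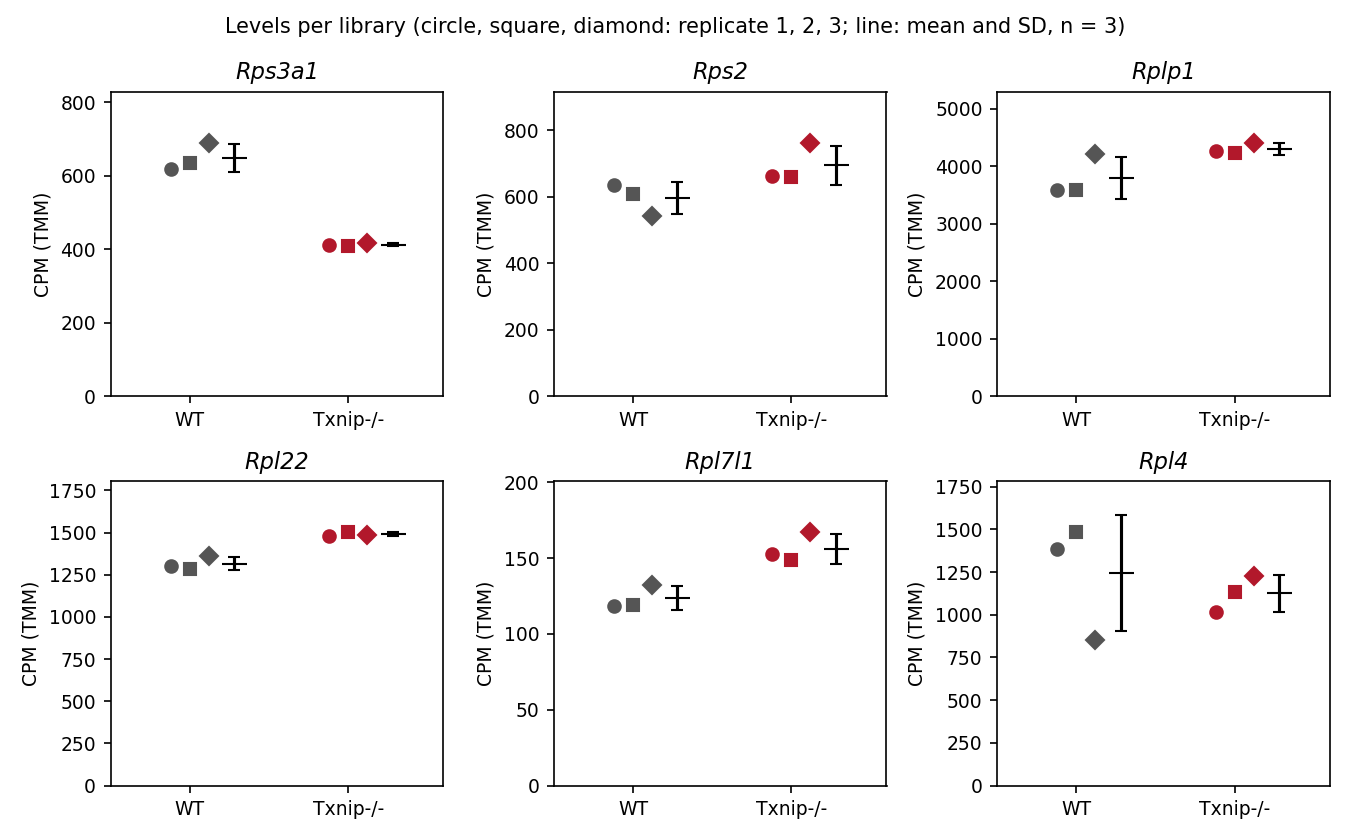
Levels of 6 ribosomal protein genes in CPM (TMM-scaled, axes from 0) in each WT (grey) and *Txnip*-/- (red) library, with symbols for the replicate number and lines for the mean and SD of 3 libraries. For *Rps3a1* the WT points (618 to 690 CPM) lie well above the *Txnip*-/- points (410 to 417 CPM), and for *Rpl4* WT replicate 3 (854 CPM) lies below all others.

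Next to *Rps3a1* at the lower end, the differences did not pass the test. *Rpl4* had 1014, 1131 and 1229 CPM in the *Txnip*-/- libraries and 1387, 1484 and 854 CPM in WT (log2 fold change -0.14, SE 0.14, adjusted p = 0.788 in edgeR). Here the WT libraries enclosed the *Txnip*-/- range, with WT replicate 3 lowest and the other WT libraries highest, and the value turned with the handling of that library: it was -0.35 (adjusted p = 0.00558) without WT replicate 3, and 0.40 with a term for WT replicates 1 and 2, a fit that leaves WT replicate 3 as the only WT library behind the difference. *Rps24* was at 865 ± 62.2 against 950 ± 87.9 CPM (-0.13, adjusted p = 0.596), *Rpl7a* at 158 ± 5.78 against 172 ± 11.7 CPM (-0.12, adjusted p = 0.683) and *Rps23*, a protein of the decoding centre, at 563 ± 67.2 against 611 ± 129 CPM (-0.12, adjusted p = 0.810).

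Pairs of paralogues were compared because each pair encodes related proteins, which can differ in where they are used. *Rpl22* was at 1490 ± 11.6 against 1315 ± 38.8 CPM while *Rpl22l1* was at 52.8 ± 4.41 against 53.4 ± 5.37 CPM (log2 fold change -0.017, adjusted p = 0.977). *Rps27* was at 95.1 ± 11.2 against 98.6 ± 6.60 CPM (-0.051, adjusted p = 0.918). *Rps27l*, a form known to be induced by p53, stood several-fold above *Rps27* at 443 ± 44.5 against 443 ± 10.6 CPM (0.00043, adjusted p = 0.999). The end of the *Rps27* coding sequence shares an exact stretch with 9 other genes, of which *Rps27rt* had a row of its own. The part of shared reads in the difference in level between *Rps27* and *Rps27l* was not tested. *Rpl36a* was at 123 ± 5.24 against 128 ± 11.2 CPM (-0.058, adjusted p = 0.899) and *Rpl36al* at 250 ± 5.63 against 248 ± 22.2 CPM (0.013, adjusted p = 0.975).

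Some forms had a partner that was nearly silent. *Rpl3*, at the peptidyl transferase centre, was at 282 ± 24.9 against 278 ± 16.1 CPM (log2 fold change 0.025) and its muscle form *Rpl3l* near 0. *Rpl10*, which joins the large subunit late in its assembly, was at 372 ± 25.3 against 379 ± 14.7 CPM (-0.028) and *Rpl10l* at 0 counts. *Rpl39* of the exit tunnel was at 227 ± 6.13 against 208 ± 3.33 CPM (0.13, adjusted p = 0.628), with all *Txnip*-/- libraries above all WT libraries, and *Rpl39l* had 9 counts at most. *Rpl7* was at 160 ± 7.75 against 157 ± 18.8 CPM (0.022), close in level to *Rpl7l1*.

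WT replicate 3 moved apart for a subset of the genes. It was the lowest of the 6 libraries for 32 members (39.0%; 20.5% of all genes tested) and the highest for 9 (10.98%; 20.9% of all). Against the mean of WT replicates 1 and 2, its log2 level was lower by more than 0.4 in 8 members and higher by as much in 0. *Rpl4* differed most (-0.75), followed by *Rpl17* (-0.59) and *Rpl21* (-0.58), and at the other end stood *Rps16* (0.39) and *Rps14* (0.34). *Rpl21* had 163, 161 and 109 CPM in the WT and 133, 151 and 144 CPM in the *Txnip*-/- libraries, while *Rps16* had 435, 407 and 550 CPM against 524, 507 and 446 CPM. Over all 6 libraries the ratio of highest to lowest was under 1.2 for 39 members, and its median was 1.21 for the members and 1.55 for all genes tested. Whether the *Rn45s* share of WT replicate 3 has a part in this was not tested.

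**Figure D4:**
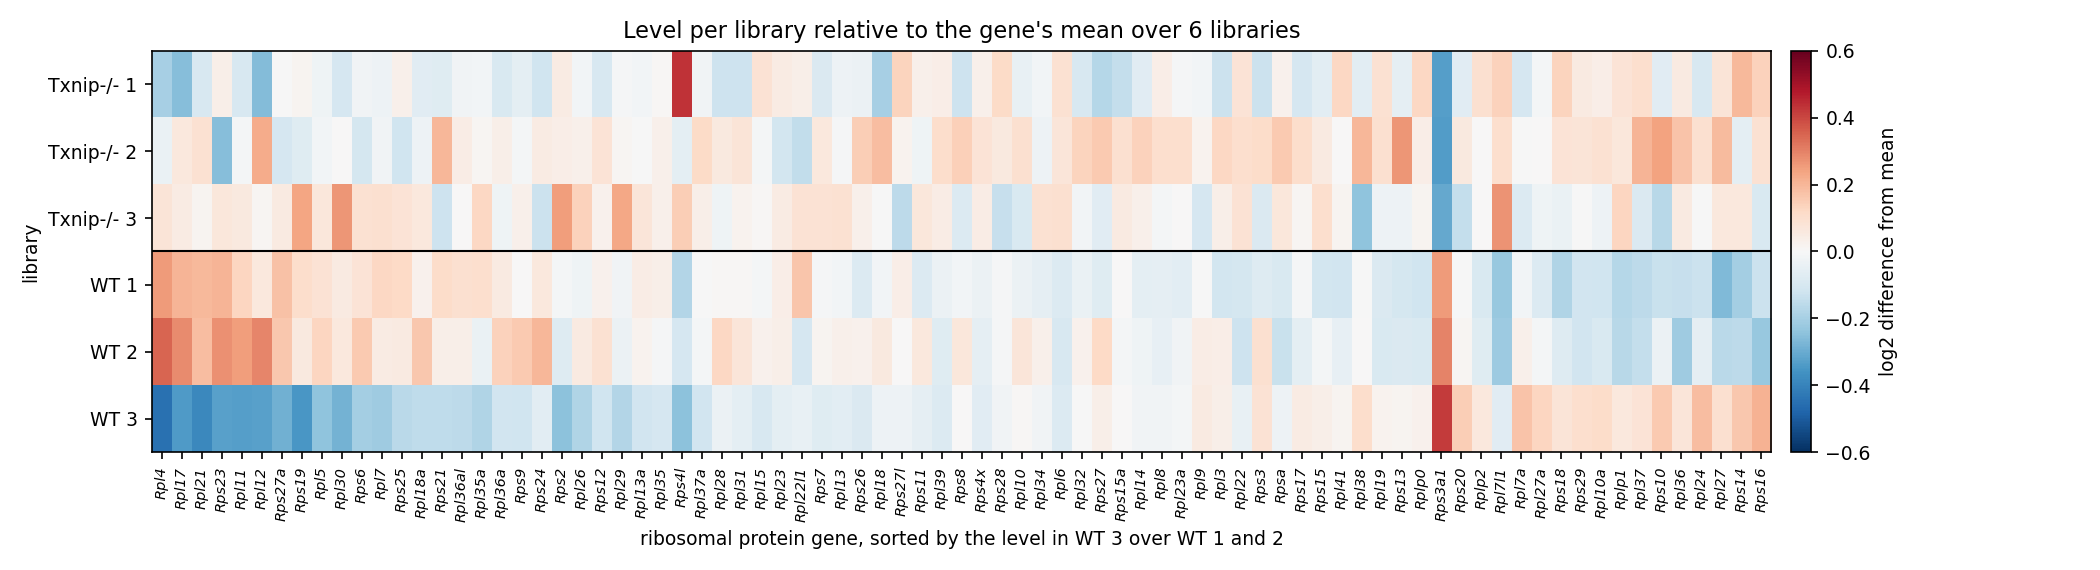
The log2 level of 81 of the 82 ribosomal protein genes (columns) in each library (rows) relative to its mean over the 6 libraries, sorted by WT replicate 3 over WT replicates 1 and 2. *Rpl4* at the left and *Rps16* at the right are the ends of that order (-0.75 and 0.39), and *Rps3a1* is the column that is blue in each *Txnip*-/- and red in each WT library.

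The ratio of large to small subunit counts was sensitive to *Rplp1* and *Rps3a1*. It was 1.59, 1.57 and 1.63 for *Txnip*-/- and 1.53, 1.52 and 1.52 for WT LSECs, without overlap. With *Rplp1* and *Rps3a1* left out it was 1.36, 1.35 and 1.39 against 1.36, 1.35 and 1.31, and the groups overlapped. *Rplp1* of the large subunit was higher and *Rps3a1* of the small subunit lower in *Txnip*-/- LSECs. Leaving them out was therefore bound to narrow the difference.

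Nearly every member shares sequence with another gene, which matters where multiple alignments are counted. Of the 82 genes, 81 share an exact stretch of 50 bases within the last 300 coding bases with at least 1 other GENCODE gene. For *Rps4l*, which has no coding sequence, the last 300 bases of its transcript were searched. The reads come from the 3′ ends of transcripts and may lie past the coding end, so these numbers do not measure how many reads were shared. Only 390 of 5130 transcript bases are coding in *Rps15a*, and 357 of 3706 in *Rps20*. The most sharing genes were found for *Rpl7a* (74), *Rpl21* (66), *Rpl29* (60), *Rps2* (55) and *Rpl17* (45). The median log2 fold change was 0.029 both for the 32 members that share with at least 10 genes and for the 50 that share with fewer, and Spearman's rho between the number of sharing genes and the level was -0.34 over the 82 genes, which share libraries and alignment.

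Some rows of copies held counts close to or above those of the member they share sequence with. *Gm5148*, a copy of *Rps23*, had 6749, 7182 and 3966 counts in the WT libraries, beside 6862, 7370 and 4384 for *Rps23* itself, and followed it down in WT replicate 3. *Rpl34-ps1* had 8703, 9523 and 9858 counts in the *Txnip*-/- libraries beside 9248, 10045 and 10413 for *Rpl34*. *Rplp2-ps1* had 15517, 15040 and 15215 counts against 7775, 7987 and 7599 for *Rplp2*, more than the gene it is named for. *Wdr89* had 15537, 15058 and 15250 counts in the same libraries, close to *Rplp2-ps1* in each, so the counts of these rows cannot be assigned to 1 locus. Of 18 tested copy rows none was called, and their median log2 fold change was 0.063.

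Related genes of ribosome production were set beside the members. *Fau*, which encodes a ribosomal protein fused to a ubiquitin-like protein, had a log2 fold change of 0.035 and *Gnb2l1*, which encodes RACK1 of the small subunit, 0.084, and neither passed the test. Of 23 genes with terminal oligopyrimidine mRNAs outside the ribosome none passed the test (17 above 0 and 6 below, median 0.055). *Eef1a1*, the elongation factor that brings tRNA, was at 1430 ± 7.62 against 1452 ± 74.8 CPM (-0.022), and *Pabpc1*, the poly(A) binding protein, at 1617 ± 98.2 against 1373 ± 143 CPM (0.24, adjusted p = 0.232). Of 24 other initiation factors none passed (20 above 0 and 4 below, median 0.15), and of 77 mitochondrial ribosomal proteins none did (40 above and 37 below, median 0.026).

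Factors that assemble the ribosome were a further list. Of 32 such genes 1 rose by the test and 31 had a log2 fold change above 0, with a median of 0.26 where all genes tested had -2.8e-05 and the ribosomal protein genes 0.029. At an unadjusted p under 0.05 there were 15, all above 0, beside 5.48% of all genes tested in that direction. *Ncl*, the nucleolar protein nucleolin, rose from 1312 ± 169 to 1710 ± 156 CPM (log2 fold change 0.38, SE 0.093, adjusted p = 0.0474 in edgeR). This call was lost without any 1 library other than WT replicate 3 (log2 fold change 0.30 to 0.44, adjusted p up to 0.2798), with the replicate block (adjusted p = 0.135) and without normalization factors (adjusted p = 0.245). The median of the list stayed between 0.17 and 0.28 over the alternatives, with 28 to 31 genes above 0. *Noc2l*, which did not pass the test, was at 104 ± 3.91 against 79.3 ± 1.70 CPM (0.39, adjusted p = 0.0645), and *Nhp2* was the gene below 0 (-0.095). The WT libraries were not alike here, since the summed level of the list was 3463 to 4279 CPM in WT against 4455 to 4816 CPM in *Txnip*-/- libraries. Of 13 genes of RNA polymerase I and its factors, which make ribosomal RNA, none passed the test (9 above 0 and 4 below, median 0.12).

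Among 14 regulators of ribosomal protein synthesis none passed the test, with 9 above 0 and 5 below and a median of 0.022. *Mtor* was at 14.4 ± 2.001 against 22.8 ± 7.07 CPM (log2 fold change -0.66, adjusted p = 0.236 in edgeR), *Tsc1* at 28.3 ± 6.995 against 39.2 ± 1.88 CPM (-0.47, adjusted p = 0.283) and *Tsc2*, its partner in the complex that restrains mTOR, at 51.9 ± 2.99 against 64.8 ± 5.45 CPM (-0.32, adjusted p = 0.286). *Larp1*, which binds the oligopyrimidine tract, was at 269 ± 12.5 against 276 ± 31.0 CPM (-0.036), and *Myc* at 37.0 ± 6.42 against 29.6 ± 3.57 CPM (0.32, adjusted p = 0.489). Translation itself was not measured.

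**Figure D5:**
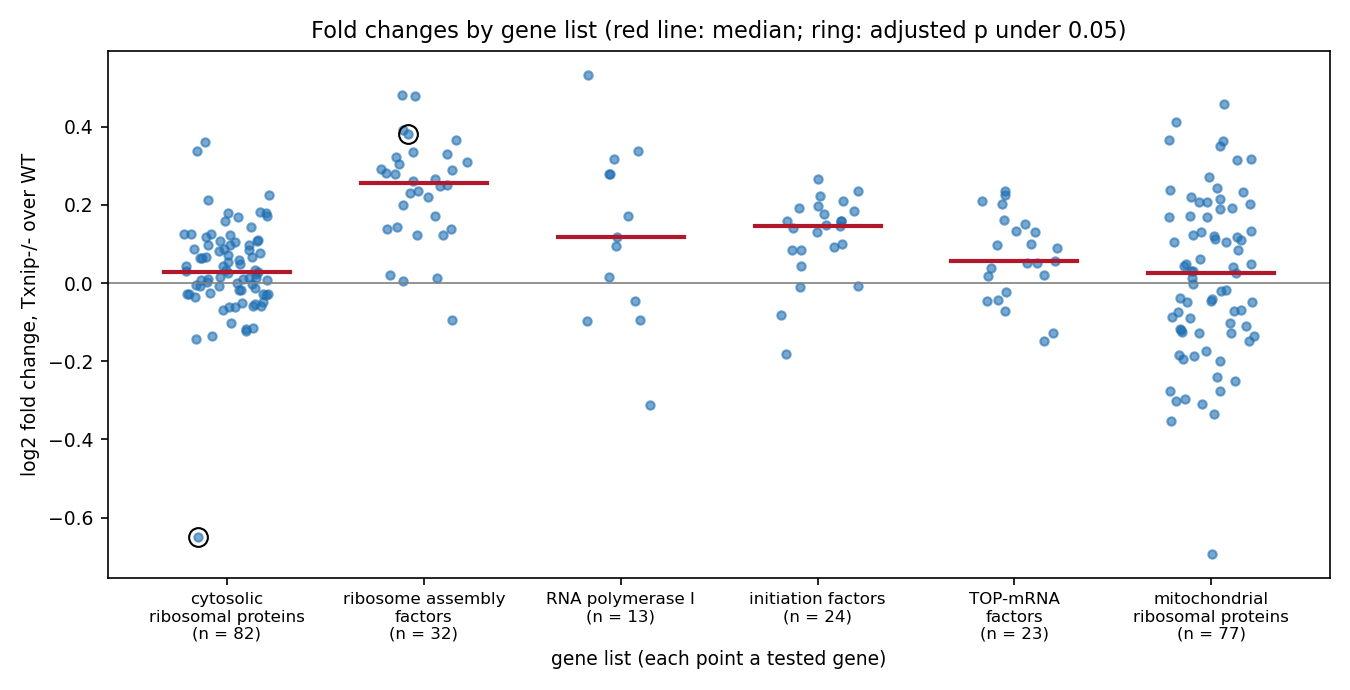
The log2 fold change of *Txnip*-/- over WT for each tested gene of 6 lists, with the median as a red line and genes of an adjusted p under 0.05 ringed. The median is 0.029 for the 82 ribosomal protein genes and 0.26 for the 32 assembly factors, and *Rps3a1* and *Ncl* carry the rings.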

How the data were processed

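RNA of LSECs from 3 *Txnip*-/- and 3 WT libraries was analysed. The authors aligned single-end QuantSeq reads with Bowtie2 (mm10 per the submitters' processing notes) and used Bedtools to count reads per gene, those with several alignments included. The deposited files hold these raw counts as whole numbers by gene symbol. Versions, annotation and use of strand are not given in the sources used here. No molecular identifiers are named, so floors cover counting error only. Totals were 9147764 to 10193952 counts, and 44 rows that repeat a symbol were kept apart.

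The genotypes were compared with edgeR 4.0.16 in R 4.3.3 (filterByExpr, TMM factors, glmQLFit and glmQLFTest), with genotype alone in the model and p-values adjusted after Benjamini-Hochberg over 11583 genes. The SE of a log2 fold change was its size over the square root of F. Adjusted p-values are edgeR's unless another tool is named. The code was tested on simulated data with 200 changed genes. Alternatives were DESeq2 1.42.0, limma-trend (limma 3.58.1, prior count 2), other factors and filters, a replicate block, a term for WT replicates 1 and 2, *Rn45s* left out, each library left out, other call rules (a fold change above 1.3, or an unadjusted p) and other denominators. Their use on *Ncl*, on the assembly list and on the calls by distance from *Txnip* was added after seeing the data. Libraries with the same replicate number did not deviate together from the genotype means (r = -0.030, 0.017 and -0.047 across genes). Over the members alone r was -0.15, -0.070 and -0.59. The labels do not say whether these numbers mark pairs, and with 3 libraries per genotype such values cannot settle it.

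Gene positions and coding ends are from GENCODE M21 (GRCm38), and start site sequences from RefSeq. The members and gene lists, and the alternatives, were chosen with earlier results of these data known. Named with values were genes past the call rule, the 5 highest and 5 lowest fold changes, the 5 highest and 3 lowest levels, listed paralogue pairs, *Rpsa* and the stalk genes, and list members past the call rule. Other genes given were named after their values were seen, the copy rows among them. A few genes are counted in the totals but not reported here on their own.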

Additional observations from a re-analysis of the deposited data

How the results depend on the processing

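*Rps3a1* kept its direction and its call in every alternative run, including DESeq2, limma-trend and each library left out (range over the libraries left out -0.69 to -0.60, highest adjusted p 0.00351). The replicate block, for numbers not known to mark pairs, gave *Rps3a1* -0.65 with an adjusted p of 0.00164. This block left 108 calls over all genes where 179 were made without it. It changed no call of a ribosomal protein gene, while *Ncl* lost its call. The count of genes called higher was 1 (*Rpl4*) with the term for WT replicates 1 and 2, which sets the *Txnip*-/- libraries against WT replicate 3 alone and assumes that it varies like the other libraries, and 7 at an unadjusted p, and 0 to 3 over the libraries left out. Lower calls were 1 to 2 over the libraries left out, and the 3 higher and 2 lower calls came without WT replicate 3. Over all genes, 367 were called without WT replicate 3 and 89 to 112 without another library, 346 without the filter on low counts and 262 by DESeq2. The median fold change of the members was -0.053 without normalization factors, and the share difference 0.14 points without *Rn45s* and 0.11 on the effective size, against -0.12 on all counts. The causes were not tested.

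Some genes that had not passed the test changed sign. Without normalization factors this held for *Rpl35a* (-0.0093), *Rpl3* (-0.057), *Rpl7* (-0.065), *Rpl36al* (-0.073), *Rps27l* (-0.082) and *Rplp2* (-0.013). *Rps27l* was -0.0059 without the filter, -0.0040 with the replicate block and -0.0041 by limma-trend. The term for WT replicates 1 and 2 gave 0.40 for *Rpl4*, 0.0014 for *Rps24*, 0.28 for *Rps23*, 0.11 for *Rps9*, -0.094 for *Rps14*, 0.040 for *Rpl22l1*, -0.021 for *Rpl3*, 0.086 for *Rpl36a* and -0.027 for *Rplp2*. Over the libraries left out, the log2 fold change ranged from -0.35 to 0.0048 for *Rpl4*, -0.096 to 0.043 for *Rps9*, -0.071 to 0.066 for *Rpl22l1*, -0.033 to 0.091 for *Rpl3*, -0.071 to 0.091 for *Rpl7*, -0.084 to 0.0066 for *Rpl10*, -0.058 to 0.062 for *Rpl36al*, -0.15 to 0.017 for *Rps27* and -0.069 to 0.071 for *Rps27l*. In these fits the other members named by the rule kept their sign and call, except that *Rplp1*, *Rpl22* and *Rpl7l1* passed the threshold without WT replicate 3. At these totals 3 members stayed too low to describe.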
